A study of Mus musculus with 16 samples.

Results

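The regions described here are the accessible regions of mouse male germ cells on the day of birth (postnatal day 0, P0) and 3 days later (P3), the interval in which gonocytes leave mitotic arrest. They were taken as all 67258 peaks of the P0 list and all 44760 peaks of the P3 list, together 112018 of the 302829 peaks in the 6 distinct lists of the series. A P0 peak was called kept when it shared at least 1 bp with a P3 peak and lost when it did not, and a P3 peak was called gained when it shared no base with a P0 peak. The assay was ATAC-seq, whose transposase inserts sequencing adapters into open DNA.

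The germ cells came from the testis of Mvh-Venus transgenic mice, a strain with a fluorescent germ cell reporter (Mvh is another name of *Ddx4*), that were either *Morc1* heterozygous, Morc1 (+/-), or *Morc1* knockout, Morc1 (-/-). MORC1 is a nuclear ATPase that helps to silence transposons in the male germ line. There are 8 samples of these stages, 2 for each genotype at P0 and 2 for each genotype at P3. One peak list per genotype and stage was deposited, and the lists named for the 2 genotypes are identical in all 67258 rows at P0 and in all 44760 rows at P3, so no genotype is attached to either. The number of animals behind a sample is not given in the sources used here. Each stage is thus a single list without heights, replicates or a known sequencing depth, and no difference below has been compared with the spread between samples. The 95% Wilson intervals printed with shares cover counting error over peaks only.

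Gonocytes stop dividing in the fetal testis, stay arrested until birth, and then re-enter the cell cycle while they move to the basement membrane of the testis cords and become the first spermatogonia. Retinoic acid, a vitamin A derivative made in the testis, acts through nuclear receptors of the RAR and RXR families and drives the differentiation of spermatogonia, in which *Stra8* is its classic target and the receptor tyrosine kinase gene *Kit* a classic marker. Peaks at gene starts usually mark promoters, whereas peaks far from genes often mark enhancers or other regulatory elements that are more specific to a cell state.

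Examples of gene starts at which the lists differed, chosen after their values were seen, are shown first, with 1 start that had a peak at both stages beside them. Each sequence is the 250 bases before the annotated gene start, from RefSeq on GRCm38.p6, written 5′ to 3′ on the strand of the gene. CpG dinucleotides are in capitals because the median CpG content differed between kept and lost starts, though the groups overlapped. The starts of *Pou5f1*, which encodes the pluripotency factor OCT4 (gene ID 18999, plus strand, chr17:35505782-35506031), of the piRNA pathway helicase gene *Tdrd9* (74691, plus strand, chr12:111971309-111971558) and of the zinc finger gene *Egr4* (13656, minus strand, chr6:85513590-85513839) had a peak at P0 and none at P3. The starts of *Stra8* (20899, plus strand, chr6:34920698-34920947) and of the zinc finger gene *Egr2* (13654, plus strand, chr10:67537316-67537565) had a peak at P3 that was missing at P0. The start of *Cdk1*, the kinase that drives entry into mitosis (12534, minus strand, chr10:69352913-69353162), had a peak at both stages.
Pou5f1: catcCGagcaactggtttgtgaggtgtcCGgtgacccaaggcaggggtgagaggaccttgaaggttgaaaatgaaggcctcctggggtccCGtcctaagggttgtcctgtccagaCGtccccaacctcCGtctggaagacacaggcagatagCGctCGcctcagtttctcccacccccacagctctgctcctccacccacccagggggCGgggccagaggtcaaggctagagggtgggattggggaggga
Tdrd9: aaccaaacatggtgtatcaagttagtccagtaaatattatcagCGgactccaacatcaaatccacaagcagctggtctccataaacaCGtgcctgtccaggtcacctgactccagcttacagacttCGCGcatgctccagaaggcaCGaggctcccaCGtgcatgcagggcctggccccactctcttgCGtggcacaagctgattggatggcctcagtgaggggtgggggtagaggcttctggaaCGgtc
Egr4: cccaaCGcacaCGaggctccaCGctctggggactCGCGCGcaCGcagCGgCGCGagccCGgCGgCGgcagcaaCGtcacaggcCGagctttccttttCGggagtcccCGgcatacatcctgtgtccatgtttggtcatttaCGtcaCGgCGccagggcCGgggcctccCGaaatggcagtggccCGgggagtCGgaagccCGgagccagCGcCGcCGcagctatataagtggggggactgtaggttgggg
Stra8: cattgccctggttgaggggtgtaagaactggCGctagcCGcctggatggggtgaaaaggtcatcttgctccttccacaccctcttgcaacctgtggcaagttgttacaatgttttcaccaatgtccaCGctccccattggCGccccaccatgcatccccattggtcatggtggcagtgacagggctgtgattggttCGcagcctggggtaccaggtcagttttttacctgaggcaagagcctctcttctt
Egr2: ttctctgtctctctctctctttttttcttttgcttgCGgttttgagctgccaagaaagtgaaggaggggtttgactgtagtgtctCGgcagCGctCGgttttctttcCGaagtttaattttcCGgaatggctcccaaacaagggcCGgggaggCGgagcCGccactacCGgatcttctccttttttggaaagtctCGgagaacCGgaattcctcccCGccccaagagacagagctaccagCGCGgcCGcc
Cdk1: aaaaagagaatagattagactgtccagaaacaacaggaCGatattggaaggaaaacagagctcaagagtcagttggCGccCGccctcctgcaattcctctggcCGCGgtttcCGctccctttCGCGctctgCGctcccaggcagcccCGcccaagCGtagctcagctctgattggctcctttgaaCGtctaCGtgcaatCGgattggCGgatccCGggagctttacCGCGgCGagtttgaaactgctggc
These stretches held 8 CpGs at *Pou5f1*, 8 at *Tdrd9*, 28 at *Egr4*, 5 at *Stra8*, 16 at *Egr2* and 19 at *Cdk1*. The 3 starts that lost their peak thus included CpG-poor and CpG-rich ones. The P0 peak of *Stra8*, 1120 bp downstream of the start, still reaches within 1000 bp of it, so that by the window used below for all starts *Stra8* counts as having a peak at both stages.

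Between P0 and P3 far more peaks were lost than gained. Of the P0 peaks, 29824 (44.3%, interval 43.97 to 44.7) had no counterpart at P3 and 37434 (55.7%) were kept. Of the P3 peaks, 7326 (16.4%, interval 16.03 to 16.7) were gained. Every kept P0 peak overlapped exactly 1 P3 peak, so the excess of losses over gains equals the difference in length between the lists. Sequencing depth, peak calling and the cells themselves can all set the length of a list, and these cannot be told apart here. A smaller share of cells with an open region and less opening per cell cannot be told apart either.

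Kept peaks stayed close to their place. Their centres lay a median of 45 bp apart at the 2 stages (quartiles 19 to 103), and 278 (0.743%) had exactly the same centre. Nearest to the limit of the overlap rule were 2134 kept peaks (5.70%) whose centres were more than 250 bp apart. On its other side were 1101 lost peaks (3.69%) with a P3 peak within 500 bp and 1075 gained peaks (14.7%) with a P0 peak within 500 bp. These 2 counts are similar, and the shares differ because there were 29824 lost but only 7326 gained peaks.

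The peaks that stayed were largely at genes, and the peaks that went were largely between them. A peak was placed at a gene end when it came within 1000 bp of the first or last base of an annotated gene. This held for 37.7% of kept peaks (interval 37.2 to 38.2), 13.4% of lost peaks (interval 12.99 to 13.8) and 14.2% of gained peaks (interval 13.4 to 15.03). Between genes lay 61.1% of lost, 38.9% of kept and 42.2% of gained peaks. The third position, within a gene but away from its ends, set the gained peaks apart: it held 43.6% of them (interval 42.5 to 44.8), against 25.5% of lost and 23.5% of kept peaks.

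**Figure D1:**
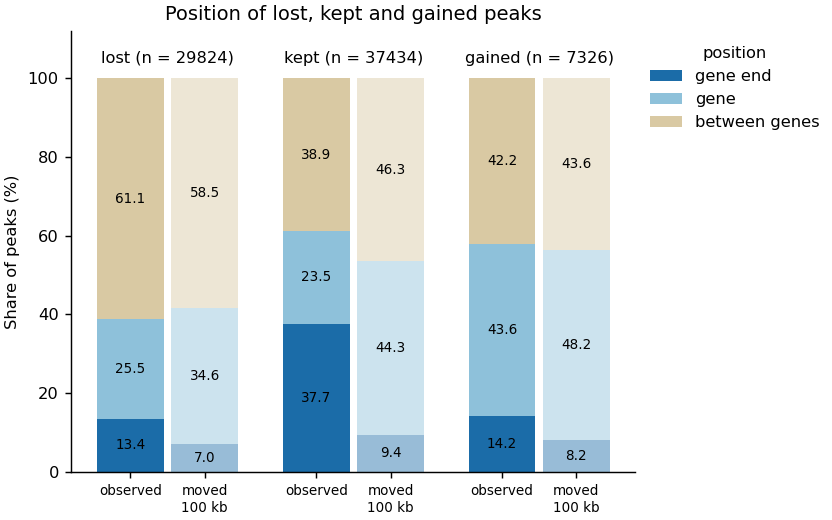
Share of lost, kept and gained peaks (%, vertical axis) at a gene end, within a gene away from its ends, and between genes; the pale bars give the same shares after all peaks were moved by 100 kb, averaged over both directions. Kept peaks met a gene end in 37.7% of cases, lost and gained peaks in 13.4% and 14.2%, and all 3 sets did so less often after the move.

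When peaks were moved by 100 kb, a measure of the gene content of their surroundings, 9.38% of kept, 6.97% of lost and 8.16% of gained peaks met a gene end. After the same move 48.2% of gained peaks lay within genes, close to their observed 43.6%, compared with 44.3% of kept and 34.6% of lost peaks. The surroundings of gained peaks thus lay within genes most often, but did not meet gene ends more often than those of kept peaks. Observed gene-end shares exceeded those after the move by a similar margin for gained peaks (14.2% against 8.16%) and lost peaks (13.4% against 6.97%). The margin was far larger for kept peaks (37.7% against 9.38%). Counted from the P0 side, 77.9% of gene-end peaks were kept (interval 77.3 to 78.5), 53.6% of peaks within genes and 44.4% of peaks between genes. Of the P3 peaks at gene ends 6.87% were gained, against 26.7% of those within genes and 17.5% of those between genes.

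The same gradient appeared with distance. The centre of a kept peak lay a median of 5.34 kb from the nearest gene end (quartiles 0.212 to 26.9), that of a gained peak 13.1 kb (3.81 to 35.9) and that of a lost peak 17.99 kb (4.58 to 62.9). Of the P0 peaks under 1 kb from a gene end, 79.2% were kept. The share was 52.3% at 1 to 10 kb, 47.3% at 10 to 100 kb and 39.0% beyond 100 kb. Lost peaks were also the most remote, with 16.2% of them over 100 kb from any gene end, compared with 8.25% of kept and 7.88% of gained peaks. With protein-coding genes alone, gene ends held 6.002% of lost, 30.04% of kept and 7.28% of gained peaks, and the median distances were 73735.5, 16240 and 35153 bp in that order. Among peaks inside protein-coding genes but off their ends, the host gene had a median length of 152 kb for gained, 135.3 kb for lost and 114 kb for kept peaks.

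At gene starts, CpG content went with retention. Of 17492 protein-coding genes with an annotated start in the RefSeq promoter table, 21263 starts were examined, each as the 300 bases from 250 before to 50 after the start. The CpG ratio is the number of CpGs divided by the number that the C and G content would give by chance. Its median was 0.770 for starts with a peak within 1000 bp at both stages (12056 starts), 0.459 for starts with a P0 peak only (1059), 0.482 for starts with a P3 peak only (225) and 0.188 for starts with neither (7923). Among starts with a P0 peak, 65.2% were kept where the ratio was under 0.25 (interval 61.6 to 68.6), 82.5% at 0.25 to 0.5, 93.1% at 0.5 to 0.75 and 96.8% above 0.75 (interval 96.3 to 97.2). Where all 4 embryonic lists had a peak, the kept share was 94.5% in the lowest class and 98.4% in the highest. Where no embryonic list had one, it was 15.8%, 29.7%, 24.2% and 12.0% from the lowest class to the highest, with 120, 148, 62 and 25 starts, and did not rise steadily with CpG content.

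Short motifs were counted in the same 300 bases on both strands, none of them contained in another. The GC box GGGCGG, bound by SP family factors, occurred in 67.1% of starts with a peak at both stages, 43.0% of lost starts, 40.4% of gained starts and 46.2% of all starts. The CCAAT box, bound by NF-Y, occurred in 38.5% of starts with a peak at both stages, 32.8% of lost, 36.4% of gained and 38.2% of all starts. The cAMP response element TGACGTCA was found in 3.24%, 1.32%, 2.22% and 2.23% of the same groups, and the E-box CACGTG in 10.6%, 6.89%, 7.11% and 7.84%. The interval of lost starts for the CCAAT box (30.01 to 35.7) lay below that of starts with a peak at both stages (37.6 to 39.4). Gained starts, with 225 members, had intervals that overlapped those of lost starts for all 4 motifs. Of the sequences printed above, those of *Pou5f1*, *Egr2* and *Cdk1* hold the GC box, and those of *Pou5f1*, *Tdrd9*, *Stra8* and *Cdk1* hold the CCAAT box. That of *Tdrd9* also holds the E-box, and that of *Egr4* none of the 4.

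The share of P0 peaks kept at P3 followed the number of earlier lists in which they had a counterpart. Of the P0 peaks with an overlapping peak at both embryonic stages, E13.5 and E16.5 (days after mating), counting the lists of either genotype, 89.3% were kept (21052 of 23580). Of those found at E16.5 only, 49.5% were kept (12348 of 24938), and of those found at E13.5 only, 51.0% (894 of 1752). Of the peaks first seen at P0, 18.5% were kept (3140 of 16988, interval 17.9 to 19.1). Counted over the 4 embryonic lists, the kept share was 18.5% with a peak in 0 of them, 34.2% in 1, 58.2% in 2, 74.8% in 3 and 94.8% in all 4.

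**Figure D2:**
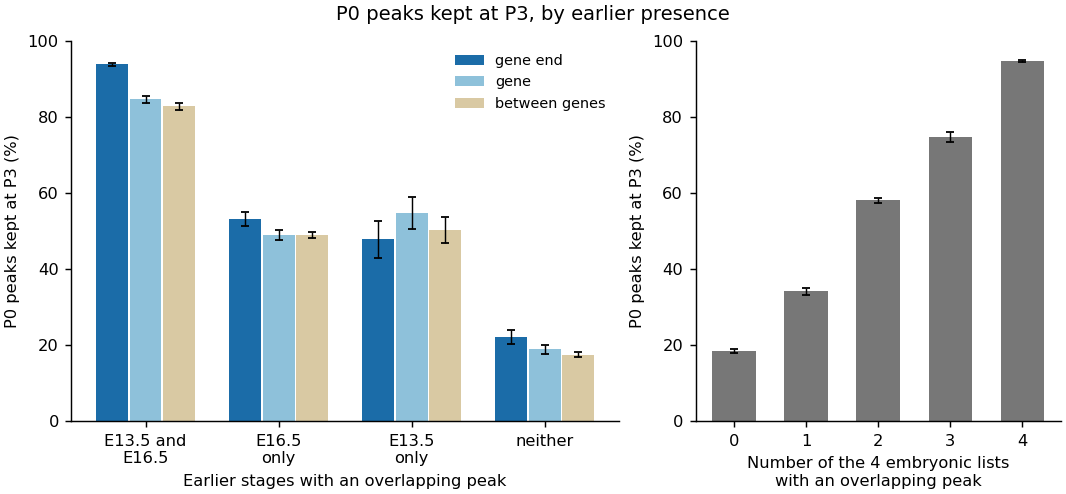
Share of P0 peaks kept at P3 (%, vertical axes) by the earlier stages that had an overlapping peak and by position (left), and by the number of embryonic lists with one (right); error bars are 95% Wilson intervals over peaks. Peaks first seen at P0 were kept in 18.5% of cases, and peaks present in all 4 embryonic lists in 94.8%.

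Within a history class, position mattered less than over all peaks. Among peaks present at both embryonic stages, 93.95% were kept at gene ends, 84.7% within genes and 82.9% between genes. Among peaks found at E16.5 only, the shares were 53.2%, 49.1% and 49.0%. Among peaks first seen at P0 they were 22.2%, 18.98% and 17.5%. Gene ends stood highest in each of these 3 classes, by less than over all peaks (77.9% at gene ends and 44.4% between genes). In the small class found at E13.5 only, gene ends did not stand above the rest (47.8%, 54.8% and 50.2%, with overlapping intervals).

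Gained peaks had a different past from lost ones. An E13.5 list held 40.0% of the gained peaks (interval 38.9 to 41.2) but 11.4% of the lost peaks (interval 10.998 to 11.7). For E16.5 the order was the reverse, with 31.9% of gained and 50.7% of lost peaks. By the rule, lost peaks are in the P0 list and gained peaks are not. Part of the difference at E16.5, the stage next to P0, can therefore follow from the rule, and its size was not tested. Of the gained peaks, 21.9% had been present at E13.5 and at neither E16.5 nor P0, so that they were missing from the lists of the arrested stages and listed again at P3. Another 18.2% had been present at both embryonic stages and missed P0 only, and 46.2% were in no earlier list. Among kept peaks 2.39%, and among lost peaks 2.88%, had been present at E13.5 but not at E16.5. Both of these sets are in the P0 list by the rule, so the same limit holds for this contrast. The gained peaks that returned from E13.5 alone lay within genes in 50.1% of cases, and those in no earlier list in 46.1%. Gained peaks that had missed P0 only were more often at gene ends (26.5%, interval 24.2 to 28.98, against 13.2% for E13.5 only, 13.03% for E16.5 only and 10.2% for no earlier list). Gained peaks found before at E16.5 only lay mostly between genes (56.8%), with 30.1% within genes.

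The preceding interval, from E16.5 to P0, which shares the P0 list with this one, gave other proportions. From the E16.5 lists, 76.1% of heterozygous and 75.04% of knockout intergenic peaks were kept at P0, against 44.4% from P0 to P3. At gene ends the shares were 90.5%, 90.1% and 77.9%. Of the peaks newly listed at P0, 25.9% (against heterozygous) and 25.3% (against knockout) lay within genes, with intervals ending at 26.4 and 25.9, whereas 43.6% of those newly listed at P3 did. These differences are outside the counting error over peaks and were not compared with the spread between samples. The lists also differ in length. The E16.5 peaks (53687 heterozygous, 57117 knockout) were matched to a longer list, that of P0 with 67258 peaks. The P0 peaks were matched to a shorter one, with 44760 peaks. Every kept P0 peak had 1 partner, so the length of the P3 list limits the share that could be kept. How much of the difference in kept shares follows from list length was not tested.

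Most lost peaks had no gained peak nearby, but lost and gained peaks lay within 5 kb of each other more often than after a move by 100 kb. A gained P3 peak lay within 5 kb of 6.28% of lost peaks, compared with 2.83% after a move by 100 kb. From the other side, 24.9% of gained peaks had a lost P0 peak within 5 kb, compared with 11.1% after the move. Near misses of the overlap rule can be among these pairs. A P0 peak lay within 500 bp of 14.7% of gained peaks, and a P3 peak within 500 bp of 3.69% of lost peaks. How much of the excess they make up was not tested. Any P3 peak lay within 5 kb of 13.55% of lost peaks, which was less than the 20.7% after the move. Lost peaks overlap no P3 peak by the rule, whereas moved peaks may, so part of this difference follows from the rule. The lists themselves hold few close peaks: neighbouring centres were under 5 kb apart in 4.96% of P0 gaps and 1.98% of P3 gaps, with 17.2% and 11.0% at 5 to 10 kb, and the smallest distance was 1001 bp and 1006 bp. A missing peak therefore does not show closed chromatin. *Actb*, a gene active in nearly all cells, had no peak at its outer ends in either list and 1 kept peak inside the gene.

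The X chromosome lost far more of its peaks than any autosome. Of 3034 X peaks at P0, 1051 were kept (34.6%, interval 32.97 to 36.4), compared with 56.7% on the autosomes together and a range from 48.9% on chromosome 12 to 64.4% on chromosome 11. It gained little as well: 137 of 1188 X peaks at P3 were gained (11.5%, interval 9.84 to 13.47), against 16.503% on the autosomes. The X chromosome held 2.70% and 2.49% of the peaks in the heterozygous and knockout lists of E13.5, 3.66% and 4.05% at E16.5, then 4.51% of the P0 and 2.65% of the P3 peaks. Its share thus climbed through arrest and at P3 was back within the interval of the E13.5 heterozygous list (2.55 to 2.86). From E16.5 to P0, by contrast, the X chromosome kept 82.5% of the heterozygous and 77.99% of the knockout peaks, beside 77.8% and 76.8% on the autosomes.

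**Figure D3:**
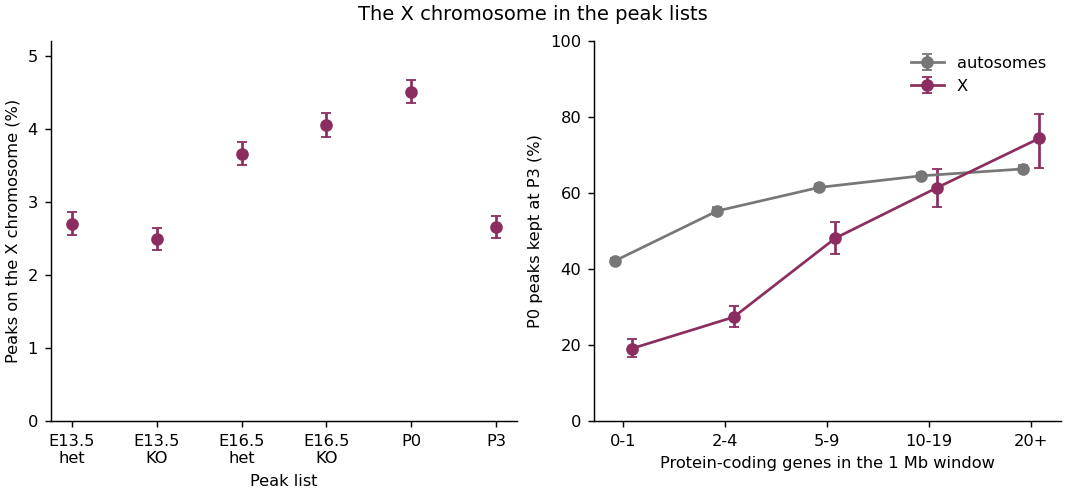
Left, share of peaks on the X chromosome (%) in the 6 lists; right, share of P0 peaks kept at P3 (%) by the number of protein-coding genes in the 1 Mb window of the peak, for the X chromosome and the autosomes. Points carry 95% Wilson intervals over peaks; the X chromosome lies below the autosomes in windows with under 10 genes and its intervals overlap theirs in denser windows.

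The X chromosome kept a smaller share than the autosomes in windows with few genes. In 1 Mb windows with 0 to 1 protein-coding gene, 19.1% of X peaks were kept against 42.3% of autosomal peaks. In windows with 2 to 4 genes the shares were 27.4% and 55.3%, and with 5 to 9 genes 48.2% and 61.5%. At 10 to 19 genes the intervals overlapped (61.5% and 64.6%), and at 20 or more genes the X share was 74.5% (105 of 141) beside 66.4%. Peaks between genes were kept in 22.3% of cases on X and 45.8% on the autosomes, peaks at gene ends in 70.2% and 78.3%. X peaks present at both embryonic stages were kept in 87.8% of cases and autosomal ones in 89.3%, with overlapping intervals. Of peaks found earlier at E16.5 only, 30.6% were kept on X and 50.5% on the autosomes, and of those found at E13.5 only, 25.9% (7 of 27) and 51.5%. X peaks first seen at P0 were kept in 5.26% of cases (55 of 1045), against 19.4% on the autosomes.

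Genes with many peaks ranged from nearly complete loss to nearly complete retention. Among the 191 protein-coding genes with at least 10 P0 peaks within their bounds, the median gene kept 50% of them (quartiles 40 to 66.7). The gene that kept least was *Agmo*, which encodes an ether lipid-cleaving monooxygenase (chromosome 12), with 0 of 11 peaks kept. Next came *Il1rapl1*, a synaptic adhesion gene of the X chromosome, with 2 of 44, the X-linked teneurin gene *Tenm1* with 1 of 20, and the dystrophin gene *Dmd* (X, 2390 kb long) with 3 of 55. *Pitpnc1*, for a phosphatidylinositol transfer protein, kept 1 of 10, the X-linked protocadherin gene *Pcdh11x* 3 of 20, *Dach2* on the X chromosome 2 of 13, and the neural cell adhesion gene *Ncam2* 4 of 25. Of these 8 genes 5 are X-linked, out of 7 X-linked genes among the 191. The median share kept was 15% over those 7 genes and 50% over the others.

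At the other end, *Tenm2*, an autosomal paralogue of *Tenm1*, kept 11 of 12 peaks, and the cadherin gene *Cdh13* kept 10 of 11. The nuclear factor I gene *Nfia*, the RNA-binding protein gene *Rbms3*, the adaptor gene *Skap1* and the spectrin gene *Sptbn4* each kept 9 of 10. The glypican gene *Gpc6* kept 10 of 12. Long genes stood at both ends of this order: *Tenm2* spans 1230 kb and *Cdh13* 1185 kb, *Il1rapl1* 1375 kb and *Tenm1* 901 kb. None of the genes named here for a high share is on the X chromosome.

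Gains inside genes were spread over 2434 protein-coding genes. *Dlgap1*, which encodes a scaffold protein of synapses (chromosome 17), gained 12 peaks and kept 16 of 20. The transcription factor gene *Sox5* gained 9 and kept 7 of 9. *Ldlrad4*, *Fry*, *Rbms3* and *Arhgap24* gained 8 each, and *Trio*, for a guanine nucleotide exchange factor, and the orphan nuclear receptor gene *Esrrg* gained 7 each. *Trio* had 2 peaks within its bounds at P0 and 7 at P3.

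The windows of 1 Mb with the most losses were nearly empty of genes. Positions 48000001 to 49000000 of chromosome 12 lost 53 of 73 P0 peaks and hold no protein-coding gene. On the X chromosome, 45000001 to 46000000 lost 51 of 59 peaks around *Prr32*, and 118000001 to 119000000 lost 51 of 56 around *Tgif2lx1* and *Tgif2lx2*. A window lost a median of 9 peaks. The windows with the most gains held genes: 13 peaks were gained at 76000001 to 77000000 of chromosome 14, which holds *Tsc22d1* among 5 genes. A further 12 were gained at 143000001 to 144000000 of chromosome 1, with *Rgs2* and *Cdc73* among 6 genes, where a window gained a median of 3.

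Gene by gene, most gene ends did not change state. Of 21887 protein-coding genes, 12496 had a gene-end peak at both stages and 7822 at neither. Peaks at P0 only were found at 1303 genes (5.95% of all) and at P3 only at 266 (1.22%). Of the 13799 genes with a gene-end peak at P0, 9.44% had none at P3. Of the genes that lost their peak, 29.4% had a gene-end peak in none of the 4 embryonic lists and 19.7% in all of them. Of those that gained one, 20.3% had a gene-end peak in none and 30.8% in all 4. Any peak at either outer end counts here, so the earlier peak need not be the same one. *Rxra*, a gene with one in all 4, had a P0 peak 739 bp from its P3 peak. Counting only peaks within 1000 bp of an annotated start, 4.78% of 17492 genes lost and 0.932% gained one. Of 212 genes in lists for pathways and cell types, 19 lost a gene-end peak (8.96%) and 6 gained one (2.83%).

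**Figure D4:**
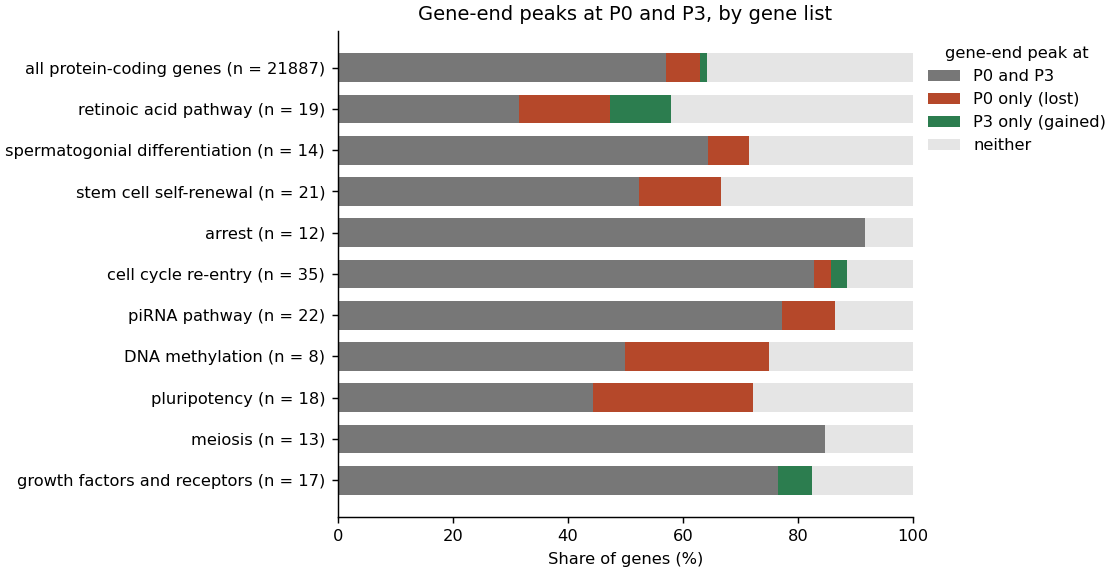
Share of the genes of each list (%, horizontal axis) with a gene-end peak at both stages, at P0 only, at P3 only or at neither, with all protein-coding genes in the top bar. The pluripotency list has the widest P0-only segment (5 of 18 genes), and the arrest, meiosis and growth factor lists have none.

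Of the pathway lists, that of pluripotency held the most genes that lost a gene-end peak. Of 18 listed genes 5 lost a gene-end peak and 0 gained one, 8 had it at both stages and 5 at neither. Over all protein-coding genes 5.95% lost and 1.22% gained one. Counted by annotated starts, 3 of the 18 genes had a peak at P0 only, and 7 had no start. The self-renewal list also had 3 genes with a start peak at P0 only, so the first place rests on gene ends. *Pou5f1* had no peak at its start at E13.5, where the nearest peak lay 1941 bp (heterozygous) and 1938 bp (knockout) upstream. At E16.5 the peak lay 74 bp and 127 bp upstream and at P0 149 bp upstream, and at P3 the nearest peak was 10981 bp downstream. *Fgf4*, a growth factor gene and OCT4 target in pluripotent cells, had a peak at its start in all 4 embryonic lists and at P0 (155 bp upstream), and at P3 none within 22 kb. *Nodal*, a TGF-beta family ligand gene, lost both its P0 peaks, at chromosome 10, 61417950 to 61418450 and 61423156 to 61423656. *Dppa3*, which protects DNA methylation in the early embryo, lost both its P0 peaks on chromosome 6, and *Dppa4* lost its only peak on chromosome 16. *Sox2*, *Klf4* and *Klf2*, also transcription factors of pluripotent cells, had a gene-end peak at both stages. *Nanog* had one at neither. Within the bounds of the 18 genes 12 of 22 P0 peaks were kept (54.5%), compared with 70.5% of P0 peaks in protein-coding genes as a whole.

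Retinoic acid genes both lost and gained peaks. Of 19 listed genes 3 lost a gene-end peak, 2 gained one, 6 had it at both stages and 8 at neither. Over all protein-coding genes 5.95% lost and 1.22% gained one. Within the bounds of the 19 genes 12 peaks were lost and 12 gained. By annotated starts, 9 genes had a peak at both stages, 1 at P0 only, 0 at P3 only and 5 at neither, and 4 had no start. *Stra8* and *Rxra*, counted as gains, and *Rara*, counted as a loss, had a start peak at both stages. The P3 peaks of *Stra8* and *Rxra* lay 1188 bp and 739 bp from the nearest P0 peak. *Stra8* had a P0 peak 1120 bp downstream of its start, seen before in the E13.5 knockout list alone (1127 bp). At P3 that peak was gone, and peaks lay 68 bp upstream and 6327 bp downstream of the start. A peak 10.1 kb upstream was in all 6 lists. The P3 peak at the start was in no earlier list, and a peak at the inner place was present in 3 of the 4 embryonic lists, at 6374 to 6438 bp. Among the receptors, *Rxra* had its peak 541 bp downstream of the start at P0 and 198 bp upstream at P3. In the embryonic lists it lay 162, 186 and 152 bp upstream (E13.5 heterozygous, E13.5 knockout, E16.5 heterozygous) and 411 bp downstream (E16.5 knockout). *Rara* kept its peak at the start (50 bp upstream at P0, 78 bp at P3), lost 2 others and gained 3 within the gene. *Rarg*, the receptor gene of differentiating spermatogonia, kept all 3 of its peaks. *Rxrb* lost a peak at an outer end, 6969 bp from its nearest start, that was in no embryonic list. Other peaks lay at an outer end of *Rxrb* in 3 of the 4 embryonic lists.

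The enzymes and carriers of the pathway also changed in both directions. *Aldh1a1*, which makes retinoic acid, kept 2 of 3 peaks within the gene and gained 1. *Aldh1a2* and *Aldh1a3*, which encode enzymes of the same step, and *Rdh10*, which makes its precursor, had a gene-end peak at both stages. The degrading enzymes *Cyp26b1* and *Cyp26c1* had no peak at P0 and 1 gained peak each within the gene at P3, and *Cyp26a1* had none at either stage. *Crabp2*, for a retinoic acid binding protein, lost the peak at its outer end. *Stra6*, for a retinol transporter, lost both peaks within its bounds, 1 of them 212 bp from an annotated start.

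Of 21 self-renewal genes of the spermatogonia, 3 lost a gene-end peak, 0 gained one and 7 had it at neither stage, while 5.95% of all protein-coding genes lost one. Within the bounds of the 21 genes 13 of 21 P0 peaks were kept (61.9%, against 70.5% in protein-coding genes as a whole) and 7 were gained. A gene-end peak at both stages was found at 11 genes, among them *Ret*, which encodes the GDNF receptor kinase, *Id4* and *Zbtb16*. *Utf1*, *Egr4* and *Bcl6b* lost theirs; the first 2 had held it in all 4 embryonic lists, and *Utf1* and *Egr4* had it 12 bp and 6 bp upstream of the start at P0. *Egr2* had no gene-end peak by the outer bounds of the gene, but a peak 108 to 136 bp downstream of an annotated start in the 4 embryonic lists was missing at P0 and present at P3 at 122 bp. *Gfra1*, for the GDNF co-receptor that marks the stem cell pool, lost all 3 P0 peaks and gained 3 others, all within the gene and 25009 to 48480 bp downstream of a start. None of those 3 was in an embryonic list.

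Of 14 differentiation genes 9 had a gene-end peak at both stages, including *Kit* and the transcription factor genes *Sohlh1* and *Sohlh2*, and 1 lost its peak. The shares over all protein-coding genes were 57.1% at both stages, 5.95% at P0 only and 1.22% at P3 only. The *Kit* peak lay 50 bp upstream of the start at P0 and 13 bp upstream at P3, and that of *Sohlh1*, first listed at E16.5, 129 bp and 173 bp upstream. *Neurog3* lost its peak, which lay 1004 bp downstream of the start and was in no embryonic list. *Dmrtb1*, which acts in the switch from mitosis to meiosis, lost the peak just upstream of a start (101 bp) and kept one 17244 bp upstream of it. No gene of this list gained a gene-end peak.

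**Figure D5:**
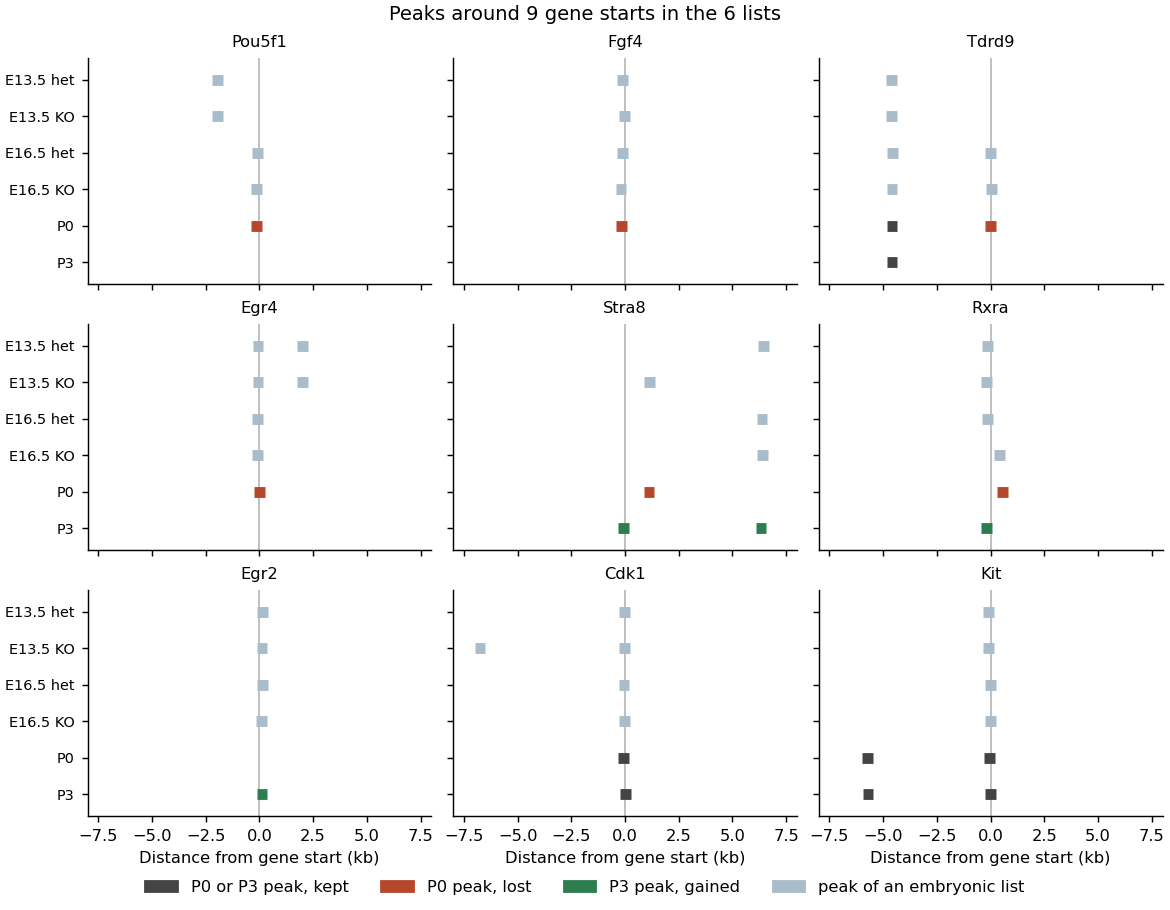
Position of peaks (bars of 500 bp) by distance from the gene start (kb, horizontal axis; positive values run into the gene) in the 6 lists for 9 genes; red marks lost P0 peaks, green gained P3 peaks and dark grey kept ones, with embryonic peaks in pale blue. Pou5f1, Fgf4, Tdrd9 and Egr4 have a start peak at P0 and none at P3, Stra8 and Rxra a P3 peak upstream of the P0 peak, Egr2 a peak in every list except P0, and Cdk1 and Kit a peak at the start throughout.

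Most cell cycle genes had a gene-end peak at both stages. Of 35 genes of the proliferating cell, 29 had a gene-end peak at P0 and P3, and 1 lost and 1 gained one. Among the 29 were *Ccne1*, *Ccne2* and *Ccna2*, which encode cyclins of the G1/S transition and S phase. Over all protein-coding genes 57.1% had one at both stages, 5.95% lost one and 1.22% gained one. The D-type cyclin genes *Ccnd1*, *Ccnd2* and *Ccnd3*, which act in G1, and *Mycn* had no gene-end peak at either stage. *Ccnd3* kept a peak inside its bounds, 69 bp upstream of an annotated start at P0 and 72 bp at P3, which all 4 embryonic lists also held. The gain was at *Myc*, the growth-promoting transcription factor gene, whose peak at chromosome 15, 61985142 to 61985642, was present in all 4 embryonic lists and missing at P0, where the nearest peak was 25.1 kb away. The loss was at an outer end of *E2f2*, 579 bp from an annotated start, while the peak 297 bp upstream of another of its starts was kept. *Cdk1* had its peak 58 bp upstream of the start at P0 and 8 bp downstream at P3. Of 12 arrest genes 11 had a gene-end peak at both stages, including the cyclin-dependent kinase inhibitor genes *Cdkn1b*, *Cdkn1c* and *Cdkn2a*, and 0 changed state. *Cdkn1a* had none at its outer ends and kept its 1 peak within the gene.

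Genes of the piRNA pathway, which silences transposons through small RNAs, changed at 2 of 22. Both lost a gene-end peak, as did 5.95% of all protein-coding genes and 9.44% of those with one at P0. *Tdrd9* had a peak at its start in both E16.5 lists (6 bp upstream, 25 bp downstream) and at P0 (12 bp upstream), and none there at P3, while a second peak 4.6 kb upstream was present in all 6 lists. *Tdrd9* also lost a peak at its far end. *Tdrd7* lost the peak at its outer end, which was in no embryonic list, and kept one 71 bp downstream of another start. Peaks at both stages were found at 17 genes, including the Argonaute genes *Piwil1* and *Piwil4*, *Tdrd5* and *Morc1*. Of 8 DNA methylation genes, 6 of them with a gene-end peak at P0, 2 lost it, a small list to set beside the shares over all genes. *Tet1*, for an enzyme that oxidises 5-methylcytosine, lost the peak 97 bp downstream of its start, which had been in all 4 embryonic lists, and kept 3 others. *Dnmt1*, the maintenance methyltransferase gene, lost a peak at its outer end and kept that at a start 5.8 kb away. *Dnmt3l*, the cofactor of de novo methylation in the arrested gonocyte, lost the peak 114 bp upstream of a start and kept another; neither lay at an outer end. *Dnmt3b*, *Uhrf1* and *Tet2* had a gene-end peak at both stages.

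Of 13 meiosis genes 11 had a gene-end peak at both stages, including *Sycp1*, *Sycp2* and *Sycp3* of the synaptonemal complex, and 0 changed. Of 17 growth factor and receptor genes 13 had one at both stages, *Pdgfrb*, *Kitl* and *Fgfr1* among them, and *Pdgfa* gained one at its far end, 18879 bp from the nearest start. Over all protein-coding genes 57.1% had a gene-end peak at both stages.

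Markers of the cells were used to check the labels. Of 10 germ cell markers 7 had a gene-end peak at both stages (*Ddx4*, *Dazl*, *Dnd1*, *Mael*, *Piwil4*, *Zbtb16* and *Tex101*), *Dppa3* at P0 only, and *Nanos3* and *Rhox5*, the latter also a gene of Sertoli cells, at neither. Of 9 Sertoli cell markers 2 had one at both stages, 1 at P0 only, 1 at P3 only and 5 at neither, *Sox9* and *Amh* among the last. Of 7 Leydig cell markers 2, of 5 peritubular and stromal markers 2, of 4 endothelial markers 2 and of 6 blood markers 1 had one at both stages. Beside these small counts, 57.1% of all protein-coding genes had one at both stages, 5.95% at P0 only and 1.22% at P3 only. Whether the marker lists differ from these shares was not tested. *Wt1* lost all 3 of its P0 peaks, and the mesenchymal gene *Tcf21* its single one; both had gene-end peaks in all 4 embryonic lists. *Inha* gained a peak 1150 bp upstream of its start, last seen at E13.5. Peaks carry no height, so a part of other cell types in the gains and losses was not tested.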

How the data were processed

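Open chromatin was measured by ATAC-seq in mouse male germ cells. The values used are the start and end of each peak in the deposited lists, which give no height, p-value or read number, so the depth is unknown. Per the submitters' processing notes the build was mm10, and bcl2fastq 2.20, cutadapt 1.18, Bowtie2 2.3.4.1, deepTools 3.5.0 and HOMER 4.10 were used. The settings and the way samples were combined into 1 list per group are not given in the sources used here.

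P0 and P3 peaks were compared by overlap in Python 3.11.15 with pandas 2.3.3, and 3 counts were checked with bedtools 2.31.1. The overlap code was tested on simulated data. Genes were those of RefSeq on GRCm38.p6 (49943, of which 21887 protein-coding). Their outer ends carry no strand, so a gene end can be a start or a far end. Starts with strand came from the RefSeq promoter table, for 17492 protein-coding genes. Distances run from the peak centre.

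The members and gene lists were chosen with earlier results of these data known. All genes of the lists matched by symbol. Named genes were the listed genes whose gene-end state changed, up to 3 unchanged genes of each list in list order, the 8 genes with the lowest and the 8 with the highest share of at least 10 P0 peaks kept, the 8 with the most gained peaks, and the genes of the 1 Mb windows with the most changes. A few of these are not reported here. Other named genes, including those whose sequence is printed, were chosen after their values were seen. With 1 list per stage no test between groups was made. Alternatives were another overlap rule, gene set, window or start definition, and autosomes only.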

Additional observations from a re-analysis of the deposited data

How the results depend on the processing

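The values below replace the main ones when 1 choice was changed. With a reciprocal overlap of at least 50%, 47.5% of P0 peaks were lost and 21.1% of P3 peaks gained, 48.9% of lost peaks were present at E16.5 and 37.3% of gained peaks at E13.5. Gene ends then held 14.3% of lost, 38.3% of kept and 17.2% of gained peaks, and 60.2%, 38.3% and 43.5% lay between genes. The median distances to a gene end were 17353, 5078 and 12440.5 bp, and 32.9% of X peaks and 37.8% of peaks in the windows with the fewest genes were kept. When peaks within 500 bp counted as shared, 42.7% were lost and 13.97% gained, 51.95% of lost peaks were present at E16.5 and 41.9% of gained peaks at E13.5. Gene ends then held 12.7% of lost and 11.3% of gained peaks, so that their order was the reverse of the main one, 61.8% of lost peaks lay between genes, and 42.4% of peaks in the windows with the fewest genes were kept. On the autosomes alone 43.3% were lost, 60.2% of lost peaks lay between genes and their median distance was 17164 bp.

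With protein-coding genes only, gene ends held 6.002% of lost, 30.04% of kept and 7.28% of gained peaks, 73.3%, 49.5% and 54.01% lay between genes, and the median distances were 73735.5, 16240 and 35153 bp. With a gene-end window of 500 bp the shares at gene ends were 10.3%, 34.4% and 10.97%, and between genes 62.2%, 39.7% and 43.3%. Counting gene starts only, 836 genes lost and 163 gained a peak, and 15 listed genes changed instead of 25, with fewer genes tested. With a start window of 500 bp the median CpG ratio of lost starts was 0.505. The other 27 values moved by less than their counting interval or, for counts of genes, by less than 1.5 times. The alternatives for the X chromosome, gene density, gene lists, start window and peak spacing were chosen after seeing the data. The cause of each move was not tested.

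No paired analysis was possible because each genotype and stage has a single list. No fit without a replicate and none with a stricter threshold was run, since the lists are single and the peaks carry no score. Absence of a peak depends on a depth that is unknown.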
